A study of Mus musculus with 24 samples.

Results

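Protein secretion begins at the endoplasmic reticulum (ER), and the 42 genes described here code for the machinery that brings proteins into it and ships them on to the Golgi apparatus. They were chosen with earlier results of these data known. By name they are components of 7 steps: 6 genes of targeting, 9 of the translocon, 3 of the signal peptidase, 9 of the COPII coat, 4 cargo receptors, 8 of the COPI coat with Arf GTPases, and 3 KDEL receptors. They are 42 of the 18193 genes that had a probe set of their own on the array, and the probe set that was brightest on average across the 24 arrays stood for each. All 42 were among the 11208 genes tested, that is, genes that exceeded an array's own median in 3 or more cases.

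RNA of B cells sorted from the spleens of C57BL/6 females, 8 to 10 weeks old, was amplified and hybridised to Affymetrix whole-genome mouse arrays, with 3 arrays for each of 8 groups. Mice for which no immunization is given provided B220+ AA4.1- B cells of 2 kinds, follicular (CD21int CD23+) and marginal zone (CD21high CD23low), and follicular B cells stimulated in culture for 6 h with 10 µg/ml F(ab')2 antibody against IgM and 2 µg/ml antibody against CD40, signals that stand in for antigen and T cell help. Mice immunized at that age with NP-CG in alum, NP being a hapten coupled to a carrier, gave NIP-binding, B220+ cells: IgG1+ CD38+ PNA- memory B cells and IgG1+ CD38dull PNA+ germinal center B cells, each at day 7 and at day 40, and IgG1low CD138+ Igλ+ plasma cells at day 7. All cells were first depleted of other lineages with magnetic beads, the follicular and marginal zone cells also of CD11b+, CD95+ and CD138+ cells. For the immunized mice, 8 to 10 weeks is the age at immunization, so mice of day 40 were older at sorting than those of day 7. Between these days, age and time after immunization cannot be told apart. No culture without stimulation was included, so culture and stimulation cannot be told apart. The labels number the arrays within a group without saying that they came from separate animals, so the p-values measure the spread between these samples, which may be technical.

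A protein with a signal sequence is recognised by the signal recognition particle while the ribosome is still making it, and is handed to the particle's receptor on the ER membrane. It is threaded through the Sec61 channel, the signal peptidase cuts off its signal sequence, and the folded product leaves in COPII-coated vesicles, some of it held by cargo receptors. COPI-coated vesicles, formed with Arf GTPases, run the other way, and KDEL receptors send escaped ER residents back with them. Plasma cells are B cells specialised in secreting antibody and are known for an expanded ER.

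Log2 signals had a floor of 2.15 and a maximum of 16.43, with array medians of 2.39 to 2.86. Across genes, which are not independent replicates, arrays within a group had r of 0.974 to 0.996. Plasma cell markers separated the sort: the summed log2 signal of 7 markers was 96.1 to 97.6 in plasma cells and 52.8 to 70.3 on the other 21 arrays, and Tnfrsf17, a survival receptor of plasma cells, read 12.39, 11.51 and 12.62 in plasma cells and at most 5.13 elsewhere. Myeloid markers were also high on all 3 plasma cell arrays, although the cells had passed a depletion that named Gr1 and F4/80. The summed log2 signal of 8 such markers was 70.7 to 73.2 in plasma cells against 25.8 to 27.5 in follicular cells, with S100a9, a neutrophil protein, at 14.23, 14.31 and 14.07. Of the 7 tested 6 were called higher, while Itgam and Adgre1, which define the myeloid lineage and macrophages, read at most 2.16 and 2.53. Of 4 T cell markers tested 3 were called higher in plasma cells in all 5 plasma cell comparisons, and so was the 1 NK cell marker tested. The summed signal was 15.9 to 22.3 for T cell markers and 7.9 to 15.8 for NK cell markers in plasma cells, against 13.0 to 17.6 and 6.4 to 9.6 on the other arrays. Cd4, Cd8a and Thy1 read 2.71 to 6.58 in plasma cells. Cd3d, Cd3e and Cd3g stood there at the floor of 2.15 on all 3 arrays. Of the NK cell markers Gzma read 4.97, 4.70 and 3.56 and Ncr1 stood at the floor. Nkg7 was high on plasma cell replicate 2 alone, at 8.95. The myeloid marker sum varied within the hapten-binding groups and reached 60.7 in memory cells of day 7 and 63.5 in germinal center cells of day 40. There S100a9 was highest on replicate 1 of each, at 13.56 and 13.84. The part of these markers in the plasma cell results was not tested, and in sorted populations fewer cells of a type and less RNA per cell cannot be told apart.

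Plasma cells stood above every other group for nearly the whole set. A gene was called when its adjusted p (limma's moderated test, Benjamini-Hochberg over the 11208 genes) fell below 0.05 and it moved by 1 or more on the log2 scale, that is by 2-fold. Against follicular cells 35 of the 42 genes were called higher and 0 lower, where 20.3% of all genes tested were called higher and 22.4% lower. The median log2 change of the 42 was 1.83, beside -0.05 over all genes tested. Without the minimum change, 39 of the 42 passed as higher (28.8% of all genes), and 40 had all 3 plasma cell arrays above all 3 follicular arrays (31.7%). The set was chosen with earlier results of these data known, so these counts describe it and are not independent support.

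Similar counts were found against 4 other groups, in comparisons that share the plasma cell arrays and so are not independent. Against marginal zone cells 36 genes were called higher (19.2% of all genes; 24% lower), with a median of 1.77 beside -0.04. Against day 7 memory cells 34 were called higher (17.9%; 18.7% of all genes lower), with a median of 1.74 beside -0.00. Against day 7 germinal center cells 33 were called higher (18.1%; 20.1% lower), with a median of 1.48 beside -0.05. Against stimulated follicular cells 34 were called higher (25.3%; 23.1% lower), with a median of 1.56 beside 0.00. No member was called lower in any of the 5. Plasma cells had the highest group mean for 41 of the 42 genes (19.8% of all genes), all 3 plasma cell arrays lay above the other 21 arrays for 37 (11.8%), and 29 were called in all 5 comparisons (8.2%).

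The other 7 groups lay closer together. The range of their 7 group means was under 1 on the log2 scale for 30 of the 42 genes and for 25% of all genes tested, with a median range of 0.70 beside 1.74 over all genes. All 42 differed somewhere among the 8 groups (moderated F test, largest adjusted p 0.0134), but so did 91.3% of all genes tested. Stimulated follicular cells held the second highest mean for 18 of the 42 and for 8.32% of all genes. These shares are not like for like, since plasma cells were first for 41 of the 42 but for 19.8% of all genes.

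**Figure D1:**
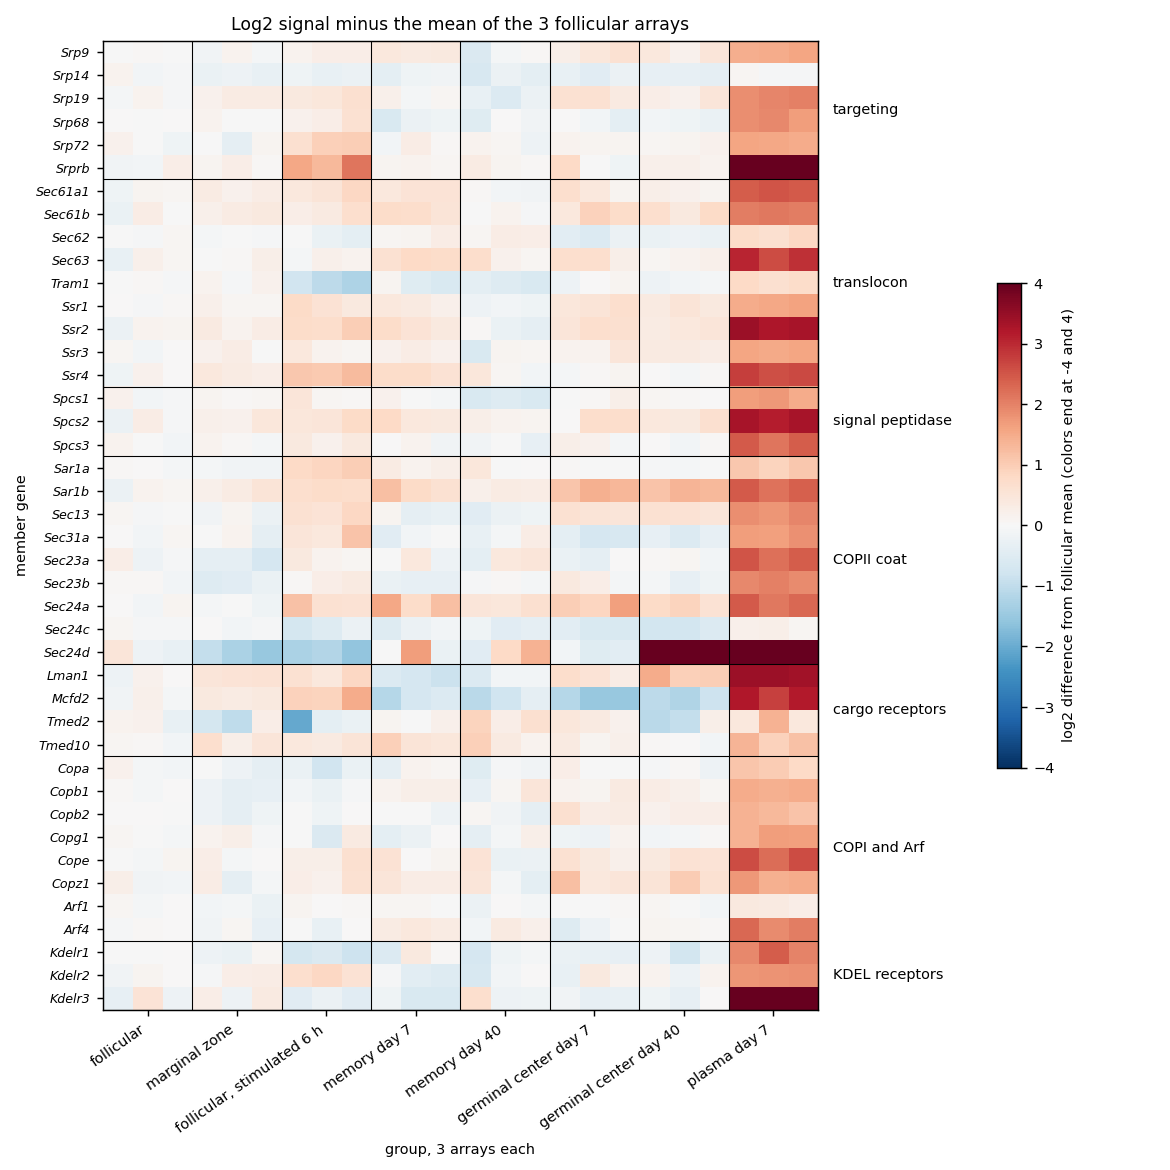
Log2 signal of each of the 42 genes (rows, by step) on each of the 24 arrays (columns, 3 a group), minus the mean of the 3 follicular arrays of that gene. Colors end at -4 and 4. The 3 plasma cell columns are red for nearly every row, Srp14 and Sec24c are among the pale rows there, and the Sec24d row is also red in day 40 germinal center cells.

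The 5' flanks of the genes were read for elements of the unfolded protein response, since the transcription factor XBP1, which binds such elements, is required for the secretory apparatus of plasma cells. RefSeq windows (GRCm38.p6) of 250 bases before to 50 bases after the start were at hand for 33 of the 42 genes, with 36 windows. Not matched were Srp19, Srp68, Sec61a1, Tram1, Ssr2, Spcs3, Lman1, Tmed2 and Kdelr2. The core of the unfolded protein response element, TGACGTGG on either strand, was found for 6 of the 33 genes: Sec24d, Kdelr3, Copb1, Copb2, Arf1 and Sec23a. That was 7 of 36 windows, where 0.676% of all 32851 windows and 0.861% of the 11610 windows of genes tested held it. The Arf1 windows with it overlap and hold the same site, which is counted once for each. The shorter ACGTG, which is contained in the core TGACGTGG, was found for 24 of the 33 genes, in 26 of 36 windows (19.6% of all windows, 25.7% of those of genes tested). CCACG, whose reverse complement overlaps the core, was found for 22 genes, in 24 of 36 windows (32.8% and 46.6%). The ER stress element in its full spacing, which joins CCAAT and CCACG, was found for 0 of the 33 (0.119% and 0.112%), and TGACGTCA, the cAMP response element, for 1 (1.79% and 3.08%). Matches are descriptions of letters in a window, not of binding. Neither Sec24a, called higher in plasma cells, nor Sec24c, the Sec24 paralog that did not pass the test against follicular cells, had TGACGTGG in its window. Printed below are the 100 bases before the start and the first base for the members with TGACGTGG before a start, and for Sec24c. Each reads 5′ to 3′ on the strand of the gene, with the element in capitals (CCACGTCA where it lies on the other strand), and for Sec24c the capitals mark ACGTG.
Sec24d: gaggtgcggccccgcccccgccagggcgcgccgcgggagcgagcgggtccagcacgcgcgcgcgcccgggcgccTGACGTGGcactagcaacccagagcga
Kdelr3: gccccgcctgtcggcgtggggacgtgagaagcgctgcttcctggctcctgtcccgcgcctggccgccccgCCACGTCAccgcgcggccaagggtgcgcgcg
Copb1: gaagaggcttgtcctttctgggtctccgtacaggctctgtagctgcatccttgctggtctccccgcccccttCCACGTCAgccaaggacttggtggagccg
Copb2: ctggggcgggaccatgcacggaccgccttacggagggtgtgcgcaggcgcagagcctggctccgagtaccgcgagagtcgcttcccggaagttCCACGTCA
Arf1: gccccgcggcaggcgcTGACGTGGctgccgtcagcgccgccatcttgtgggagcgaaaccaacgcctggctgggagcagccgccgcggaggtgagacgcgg
Sec24c: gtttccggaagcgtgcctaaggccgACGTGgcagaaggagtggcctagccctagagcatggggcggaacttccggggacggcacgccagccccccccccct

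These windows lie at chr3:123267396-123267496 (plus strand, Sec24d), chr15:79516308-79516408 (plus strand, Kdelr3), chr7:114254680-114254780 (minus strand, Copb1), chr9:98563631-98563731 (plus strand, Copb2), chr11:59228162-59228262 (minus strand, Arf1) and chr14:20674221-20674321 (plus strand, Sec24c). The element began 26 bases before the start in Sec24d, 30 in Kdelr3, 28 in Copb1 and 7 in Copb2, and 84 before 1 of the Arf1 starts. The plasma cell changes of the genes that hold it spanned most of the range of the set: the log2 change against follicular cells was 8.58 for Sec24d, 6.47 for Kdelr3, 2.38 for Sec23a, 1.45 for Copb1, 1.27 for Copb2 and 0.34 for Arf1, which was not called. Those of the matched genes without it ran from -0.00 (Srp14) to 4.28 (Srprb). Whether the element has a part in the changes was not tested.

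Of the 6 targeting genes, 5 were called higher in plasma cells than in follicular cells, with a median log2 change of 1.67. Srprb, the subunit that anchors the receptor of the signal recognition particle in the ER membrane, led them. It read 8.49, 8.51 and 8.88 on the follicular arrays, 8.74, 8.89 and 8.67 in marginal zone cells and 10.17, 9.92 and 10.78 in stimulated follicular cells. Memory cells gave 8.75, 8.76 and 8.71 at day 7 and 8.95, 8.75 and 8.67 at day 40, and germinal center cells 9.42, 8.62 and 8.47 and 8.84, 8.84 and 8.76. The plasma cell arrays read 13.13, 12.60 and 12.99, above every other array, and stimulated cells came second without overlapping the rest. The log2 change from follicular to plasma cells was 4.28 ± 0.22 (SE, adjusted p = 6.81e-12), or 19.4-fold. Its 3 probe sets gave 4.28, 2.09 and 7.27, all called.

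Srp19, an RNA-binding protein of the particle, read 11.99, 12.21 and 12.02 in follicular cells and 13.93, 14.02 and 14.08 in plasma cells, with the other arrays between 11.53 and 12.72. Those others gave 12.23, 12.41 and 12.39 in marginal zone, 12.45, 12.52 and 12.72 in stimulated, 12.29, 11.99 and 12.15 in day 7 memory, 11.78, 11.53 and 11.84 in day 40 memory, 12.67, 12.68 and 12.44 in day 7 germinal center and 12.34, 12.23 and 12.56 in day 40 germinal center cells. Plasma cells overlapped with none of them, and the log2 change was 1.94 ± 0.12 (SE, adjusted p = 1.35e-10). Srp68 and Srp72, which form a pair in the particle, rose by 1.81 and 1.54, and Srp9, which with Srp14 forms the part that pauses translation, by 1.50.

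Srp14 was the exception. It read 14.22, 13.98 and 14.05 in follicular and 14.15, 14.05 and 14.04 in plasma cells, values that overlap, and its log2 change was -0.00 ± 0.11 (SE, adjusted p = 1). Its plasma cell mean of 14.08 equalled the follicular mean. Of its 4 probe sets, all with names ending in _s_at, _x_at or _a_at, none was called. Their log2 changes were 0.00, 0.26, 0.66 and 0.65, of which the last 2 passed the test below 2-fold.

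All 9 translocon genes passed the test as higher in plasma cells, and 7 were called, with a median log2 change of 2.06. Ssr2, a subunit of the translocon-associated protein complex, read 10.80, 11.18 and 11.14 in follicular cells, 11.78, 11.73 and 12.02 in stimulated cells and 14.45, 14.28 and 14.35 in plasma cells, with the other arrays between 10.68 and 11.76. These were 11.39, 11.19 and 11.34 in marginal zone, 11.76, 11.58 and 11.44 in day 7 memory, 11.08, 10.79 and 10.68 in day 40 memory, 11.54, 11.71 and 11.69 in day 7 germinal center and 11.36, 11.47 and 11.51 in day 40 germinal center cells. Every plasma cell array lay at least 2.26 above the highest other array. The log2 change was 3.32 ± 0.13 (SE, adjusted p = 1.03e-13), or 9.99-fold.

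Sec63, a membrane protein that recruits the chaperone BiP to the channel, read 10.34, 10.83 and 10.70 in follicular cells and 13.66, 13.24 and 13.56 in plasma cells, again without overlap with any other array. Sec63 read 10.60, 10.67 and 10.85 in marginal zone, 10.55, 10.84 and 10.76 in stimulated, 11.24, 11.42 and 11.36 in day 7 memory, 11.34, 10.79 and 10.71 in day 40 memory, 11.28, 11.30 and 10.85 in day 7 germinal center and 10.71, 10.75 and 10.83 in day 40 germinal center cells between them, day 7 memory cells being highest. Its log2 change was 2.86 ± 0.17 (SE, adjusted p = 5.90e-11). Of its 5 tested probe sets 4 were called higher, at 1.53 to 3.34, and 1 was not, at -0.29. The other subunits of the translocon-associated complex gave 1.55 (Ssr1), 1.56 (Ssr3) and 2.66 (Ssr4). The channel itself gave 2.46 for its pore subunit Sec61a1 and 2.06 for Sec61b.

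Sec62, the partner of Sec63, and Tram1, a membrane protein beside the channel, passed the test below 2-fold. Their log2 changes were 0.73 ± 0.11 (SE, adjusted p = 1.23e-05) and 0.72 ± 0.16 (SE, adjusted p = 5.79e-04). Of the other probe sets of Sec62, 2 were called, at 2.06 and 1.97.

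The signal peptidase genes were called in all 5 plasma cell comparisons. Spcs2 read 11.36, 11.89 and 11.56 in follicular cells and 14.89, 14.75 and 14.89 in plasma cells, with no other array above 12.39. The other groups gave 11.81, 11.78 and 12.07 in marginal zone, 12.07, 12.09 and 12.37 in stimulated, 12.39, 12.01 and 11.99 in day 7 memory, 11.83, 11.73 and 11.70 in day 40 memory, 11.62, 12.32 and 12.31 in day 7 germinal center and 12.04, 11.98 and 12.23 in day 40 germinal center cells. This gene encodes a subunit of the peptidase without a catalytic role of its own. Spcs3 read 11.35, 11.21 and 11.11 in follicular cells and 13.68, 13.35 and 13.63 in plasma cells, with no other array above 11.61. Its other arrays gave 11.35, 11.27 and 11.13 in marginal zone, 11.61, 11.39 and 11.60 in stimulated, 11.24, 11.36 and 11.07 in day 7 memory, 11.07, 11.22 and 10.88 in day 40 memory, 11.47, 11.38 and 11.14 in day 7 germinal center and 11.25, 11.11 and 11.27 in day 40 germinal center cells. For both, plasma cells stood clear of all other groups, with values close together. The log2 changes against follicular cells were 3.24 ± 0.18 (SE, adjusted p = 1.39e-11) for Spcs2, 2.33 ± 0.13 (SE, adjusted p = 1.54e-11) for Spcs3 and 1.63 ± 0.12 (SE, adjusted p = 1.49e-09) for Spcs1.

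Of the 9 COPII genes 8 were called higher in plasma cells, with a median log2 change of 1.94. COPII coats are built from the GTPase Sar1, an inner layer of Sec23 and Sec24 and an outer layer of Sec13 and Sec31. The outer layer gave 1.86 (Sec13) and 1.71 (Sec31a). Its GTPases and inner layer are paralogs, and these differed.

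Sec24 proteins bind the cargo. Sec24d read 4.55, 3.88 and 3.79 in follicular cells, 3.11, 2.82 and 2.55 in marginal zone cells and 2.82, 2.91 and 2.48 in stimulated follicular cells, none of them above 4.55. Memory cells gave 4.06, 5.75 and 3.81 at day 7 and 3.63, 4.88 and 5.46 at day 40. Germinal center cells gave 3.95, 3.60 and 3.66 at day 7 but 8.88, 8.65 and 8.31 at day 40. Plasma cells read 12.59, 12.65 and 12.72, 3.71 above the highest other array. The log2 change against follicular cells was 8.58 ± 0.43 (SE, adjusted p = 3.27e-12), or 383-fold from a level not far above the floor, and the largest fitted change of the set. Averaging over the probe sets of each gene left Sec24d where it was, at -1.25 in marginal zone against follicular cells both ways. No other probe set therefore bears on Sec24d.

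Sec24a read 11.17, 11.05 and 11.28 in follicular cells, 12.70, 11.91 and 12.37 in day 7 memory cells, 12.35, 11.77 and 11.75 in stimulated cells and 13.62, 13.27 and 13.45 in plasma cells. Marginal zone cells gave 11.10, 11.16 and 10.99, day 40 memory cells 11.64, 11.63 and 11.82, and germinal center cells 12.16, 12.04 and 12.81 at day 7 and 11.94, 12.07 and 11.75 at day 40. Its levels were graded, with follicular and marginal zone cells lowest and plasma cells highest. The plasma cell change was 2.28 ± 0.21 (SE, adjusted p = 2.13e-08). Sec24c read 12.20, 12.08 and 12.08 in follicular cells and 12.31, 12.34 and 12.20 in plasma cells, which overlap, with a log2 change of 0.16 ± 0.13 (SE, adjusted p = 0.292). It was lower than follicular in stimulated cells (11.42, 11.59 and 11.90), where the change was -0.48 ± 0.13 (SE, adjusted p = 0.00346). Sec24c also read 12.14, 12.01 and 12.06 in marginal zone, 11.61, 11.88 and 12.01 in day 7 memory, 11.94, 11.68 and 11.76 in day 40 memory, 11.71, 11.52 and 11.52 in day 7 germinal center and 11.39, 11.38 and 11.58 in day 40 germinal center cells, all within 1 of each other on the log2 scale. Against day 7 memory, day 7 germinal center and stimulated follicular cells Sec24c passed in plasma cells below 2-fold, at 0.45, 0.70 and 0.65.

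The Sec23 paralogs of the inner layer both rose. Sec23a read 10.38, 9.91 and 10.09 in follicular and 12.63, 12.34 and 12.54 in plasma cells, and Sec23b read 11.23, 11.22 and 11.07 and 13.09, 13.18 and 13.07. Neither overlapped with any other array. Sec23a gave 9.78, 9.76 and 9.44 in marginal zone, 10.51, 10.28 and 10.20 in stimulated, 10.11, 10.55 and 9.92 in day 7 memory, 9.74, 10.56 and 10.61 in day 40 memory, 9.85, 9.77 and 10.14 in day 7 germinal center and 10.17, 10.21 and 10.01 in day 40 germinal center cells. Sec23b gave 10.67, 10.71 and 10.92 in marginal zone, 11.22, 11.45 and 11.52 in stimulated, 10.90, 10.83 and 10.84 in day 7 memory, 11.12, 11.23 and 11.10 in day 40 memory, 11.57, 11.45 and 11.08 in day 7 germinal center and 11.10, 10.83 and 10.99 in day 40 germinal center cells. The log2 changes against follicular cells were 2.38 ± 0.21 (SE, adjusted p = 1.18e-08) and 1.94 ± 0.12 (SE, adjusted p = 1.26e-10).

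The Sar1 paralogs differed in where the second level lay. Sar1a read 12.35, 12.32 and 12.22 in follicular cells, 13.10, 13.17 and 13.27 in stimulated cells and 13.36, 13.19 and 13.38 in plasma cells, so that stimulated and plasma cells overlapped. Elsewhere Sar1a read 12.21, 12.17 and 12.15 in marginal zone, 12.62, 12.43 and 12.54 in day 7 memory, 12.74, 12.27 and 12.31 in day 40 memory, 12.34, 12.28 and 12.29 in day 7 germinal center and 12.25, 12.21 and 12.28 in day 40 germinal center cells. Its plasma cell change against follicular cells was 1.01 ± 0.11 (SE, adjusted p = 2.27e-07), and against stimulated cells 0.13 ± 0.11 (SE, adjusted p = 0.32). The first of these stands at the threshold, and under the alternatives it ran from 0.92 to 2.27. A second Sar1a probe set rose by 3.52 in plasma cells and by 2.26 in stimulated cells. Sar1b read 11.06, 11.41 and 11.37 in follicular cells, 12.39, 12.70 and 12.60 in day 7 germinal center cells and 13.74, 13.44 and 13.68 in plasma cells. It further read 11.47, 11.62 and 11.78 in marginal zone, 11.95, 12.00 and 11.99 in stimulated, 12.48, 12.06 and 11.90 in day 7 memory, 11.49, 11.61 and 11.58 in day 40 memory and 12.41, 12.63 and 12.59 in day 40 germinal center cells. Its plasma cell change was 2.34 ± 0.14 (SE, adjusted p = 7.62e-11), and follicular cells had its lowest mean.

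**Figure D2:**
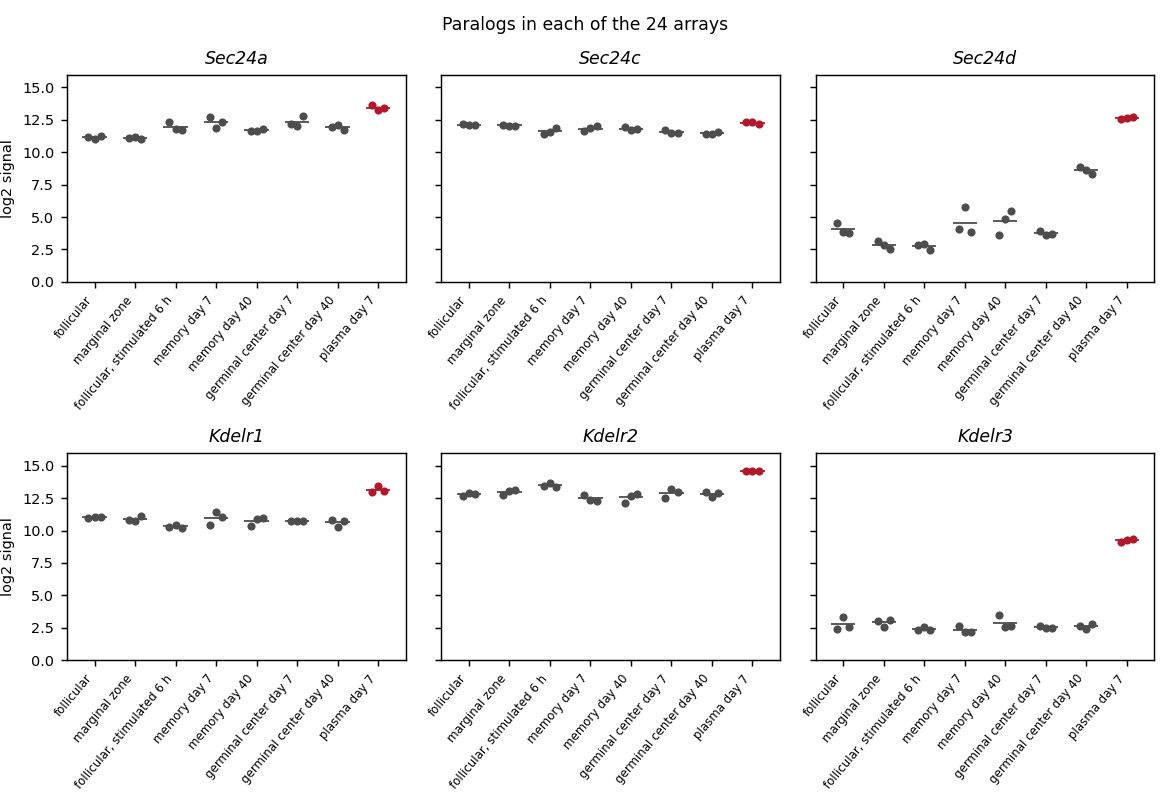
Log2 signal of the 3 Sec24 genes (top) and the 3 KDEL receptors (bottom) on each of the 24 arrays, with the mean of each group as a line and plasma cells in red. Kdelr3 lies near the floor of 2.15 outside plasma cells. Sec24d lies at 5.75 or below outside plasma cells, except in day 40 germinal center cells at 8.31 to 8.88, while Sec24c is level. Heights of different genes come from different probe sets and are not compared.

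Among the 4 cargo receptors, Lman1 and Mcfd2, which work as a pair that carries glycoproteins to the Golgi, were called in all 5 plasma cell comparisons. Lman1 read 9.41, 9.77 and 9.63 in follicular, 10.08, 10.14 and 10.19 in marginal zone and 10.22, 10.04 and 10.44 in stimulated follicular cells. Memory cells gave 9.05, 8.93 and 8.75 at day 7 and 9.06, 9.50 and 9.50 at day 40, and germinal center cells 10.32, 10.15 and 9.89 and 11.10, 10.57 and 10.59. Plasma cells read 13.01, 13.04 and 12.95, above all others, and memory cells were lowest. The log2 change against follicular cells was 3.40 ± 0.16 (SE, adjusted p = 2.16e-12), and the other 4 probe sets gave 3.14 to 8.32, all called.

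Mcfd2 read 8.03, 8.37 and 8.09 in follicular, 9.10, 9.04 and 9.65 in stimulated, 7.01, 6.64 and 6.64 in day 7 germinal center and 11.36, 10.90 and 11.32 in plasma cells. Further values were 8.55, 8.48 and 8.55 in marginal zone, 7.03, 7.49 and 7.61 in day 7 memory, 7.07, 7.37 and 7.80 in day 40 memory and 7.13, 6.97 and 7.35 in day 40 germinal center cells. Day 7 germinal center cells had the lowest mean here, while day 40 germinal center cells had the second highest for Lman1. Its plasma cell change was 3.03 ± 0.21 (SE, adjusted p = 3.39e-10) against follicular and 4.43 ± 0.21 (SE, adjusted p = 1.83e-12) against day 7 germinal center cells. Tmed10 and Tmed2, members of the p24 family, moved less. Tmed10 gave 1.15 ± 0.18 (SE, adjusted p = 2.21e-05). Tmed2 read 8.22, 8.25 and 7.78 in follicular and 8.51, 9.48 and 8.50 in plasma cells, with a change of 0.75 ± 0.43 (SE, adjusted p = 0.148).

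The COPI coat and its Arf GTPases had the smallest median change against follicular cells, 1.50, with all 8 genes passing the test as higher in plasma cells and 6 called. Cope, a coat subunit, read 11.77, 11.70 and 11.91 in follicular and 14.39, 14.03 and 14.39 in plasma cells, with no other array above 12.43. Outside these groups Cope read 12.07, 11.71 and 11.80 in marginal zone, 12.02, 12.04 and 12.43 in stimulated, 12.36, 11.82 and 11.91 in day 7 memory, 12.35, 11.54 and 11.56 in day 40 memory, 12.39, 12.17 and 12.00 in day 7 germinal center and 12.17, 12.37 and 12.33 in day 40 germinal center cells. Arf4, a GTPase at the early Golgi, read 11.06, 11.16 and 11.14 in follicular and 13.41, 13.02 and 13.17 in plasma cells, with no other array above 11.53. Outside these groups Arf4 read 10.99, 11.21 and 10.79 in marginal zone, 11.11, 10.83 and 11.12 in stimulated, 11.46, 11.53 and 11.46 in day 7 memory, 11.00, 11.48 and 11.31 in day 40 memory, 10.61, 10.93 and 11.10 in day 7 germinal center and 11.23, 11.21 and 11.16 in day 40 germinal center cells. Both stood clear of every other array in plasma cells. Their log2 changes were 2.48 ± 0.20 (SE, adjusted p = 3.93e-09) and 2.08 ± 0.15 (SE, adjusted p = 6.15e-10).

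The other coat subunits gave 1.57 (Copg1), 1.54 (Copz1), 1.45 (Copb1), 1.27 (Copb2) and 0.96 (Copa, which passed the test but was not called). A second probe set of Copa was called, at 2.87, and a second one of Copg1 was not, at 0.18. Arf1, the GTPase that starts COPI coats, gave 0.34 ± 0.09 (SE, adjusted p = 0.00438) on a high level, 14.15 in follicular and 14.49 in plasma cells. Its 2 other probe sets gave 1.58, which was called, and -0.60, which did not pass.

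The 3 KDEL receptors were called in all 5 plasma cell comparisons. Kdelr3 read 2.43, 3.30 and 2.57 in follicular, 3.03, 2.57 and 3.13 in marginal zone and 2.31, 2.52 and 2.32 in stimulated follicular cells. Memory cells gave 2.60, 2.16 and 2.16 at day 7 and 3.45, 2.57 and 2.61 at day 40, and germinal center cells 2.64, 2.45 and 2.48 and 2.60, 2.43 and 2.77. Plasma cells read 9.09, 9.30 and 9.31, above all other arrays, which lay at 3.45 or below, near the floor of 2.15, where small levels cannot be ordered. In stimulated follicular cells it lay at or below the array median on all 3 arrays, which held for no other member in any group of the 11 comparisons. The log2 change against follicular cells was 6.47 ± 0.24 (SE, adjusted p = 2.86e-14).

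Kdelr1 read 11.00, 11.01 and 11.05 in follicular, 10.31, 10.45 and 10.20 in stimulated and 12.94, 13.45 and 13.02 in plasma cells. Kdelr2 read 12.67, 12.91 and 12.83, 13.47, 13.64 and 13.37 and 14.58, 14.61 and 14.62 in the same order. Across the other groups Kdelr1 read 10.83, 10.77 and 11.11 in marginal zone, 10.46, 11.42 and 11.07 in day 7 memory, 10.34, 10.86 and 10.94 in day 40 memory, 10.77, 10.73 and 10.70 in day 7 germinal center and 10.82, 10.29 and 10.76 in day 40 germinal center cells. In stimulated cells one lay below and the other above the follicular arrays, and in plasma cells both lay above. Across the other groups Kdelr2 read 12.75, 13.07 and 13.10 in marginal zone, 12.77, 12.37 and 12.29 in day 7 memory, 12.15, 12.68 and 12.83 in day 40 memory, 12.52, 13.19 and 12.95 in day 7 germinal center and 12.95, 12.60 and 12.93 in day 40 germinal center cells. The plasma cell changes were 2.12 ± 0.21 (SE, adjusted p = 7.14e-08) and 1.80 ± 0.19 (SE, adjusted p = 1.23e-07), and a second probe set of Kdelr2 gave 4.53.

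Other probe sets of the same genes were then counted. The 42 genes have 90 probe sets of their own, of which 85 were tested. In plasma against follicular cells 68 were called higher and 0 lower, where 19.4% of 26078 probe sets were called higher. The representative sets had a median log2 change of 1.83 and the 43 others one of 2.40. Of the 42 genes 38 had at least 1 probe set called higher. Against day 7 germinal center cells the count was again 68 (17.1% of all probe sets), in 37 genes. In stimulated against unstimulated follicular cells 14 probe sets were called higher, in 9 genes, and 4 lower, where 16.8% of all probe sets were called higher.

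Stimulation for 6 h moved few of the genes past 2-fold. Against unstimulated follicular cells 3 of the 42 were called higher and 2 lower, where 16.9% of all genes tested were called higher and 22.4% lower. Without the minimum change 18 passed as higher and 5 as lower (26.1% and 31.3% of all genes). The median log2 change of the 42 was 0.33, beside -0.02 over all genes. The stimulated arrays lay lower as a whole, with the median of the genes tested 0.32 under that of follicular arrays. With arrays shifted to the same median, 10 members were called higher and 0 lower (22.9% and 17.8% of all genes), and without the minimum change 27 passed as higher and 1 as lower (36.6% and 24.2%).

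The largest rise was that of Srprb, whose arrays are given above, at 1.66 ± 0.22 (SE, adjusted p = 3.89e-06). Ssr4 read 12.25, 12.58 and 12.43 in unstimulated and 13.51, 13.47 and 13.68 in stimulated cells, a change of 1.13 ± 0.13 (SE, adjusted p = 3.22e-07). Mcfd2 rose by 1.10 ± 0.21 (SE, adjusted p = 1.74e-04). The groups did not overlap for any of the 3. Of 3 Srprb probe sets 2 were called. With sets named _s_at, _x_at or _a_at left out, the change of Srprb was 0.52 (adjusted p = 0.268 over all genes). Mcfd2 fell under the threshold, to 0.91, without stimulated replicate 3.

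Tram1 read 13.79, 13.83 and 13.76 in unstimulated and 13.03, 12.75 and 12.57 in stimulated cells and was called lower, at -1.01 ± 0.16 (SE, adjusted p = 2.11e-05). Sec24d was also called lower, at -1.34 ± 0.43 (SE, adjusted p = 0.0122), between low levels of at most 4.55, where the floor is 2.15. With arrays shifted to the same median neither was called, at -0.69 (adjusted p = 0.00539) and -1.02 (adjusted p = 0.0569). Sec24d also lost its call without follicular replicate 1, at -1.10 (adjusted p = 0.0582), and Tram1, which stands at the threshold, without follicular replicate 2 or stimulated replicate 2, at -0.99 in both cases, or stimulated replicate 3, at -0.90.

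By step, 5 of 9 COPII genes passed as higher in stimulated cells and 2 as lower, with a median of 0.67. Of all genes tested 26.1% passed as higher and 31.3% as lower. Sar1a gave 0.88 ± 0.11 (SE, adjusted p = 1.69e-06), Sec24a 0.79 ± 0.21 (SE, adjusted p = 0.00353), Sar1b 0.70 ± 0.14 (SE, adjusted p = 4.14e-04), Sec31a 0.68 ± 0.19 (SE, adjusted p = 0.0049) and Sec13 0.67 ± 0.13 (SE, adjusted p = 2.52e-04). Of the 9 translocon genes 5 passed as higher and 1 as lower, of the 6 targeting genes 3 as higher, and of the 3 signal peptidase genes 2 as higher. Of the 4 cargo receptors 2 passed as higher and 0 as lower, with a median of 0.53. The COPI step stood at a median of -0.07, with 0 of 8 genes passing as higher and 1, Copa, as lower (-0.43 ± 0.17 SE, adjusted p = 0.0383). Among the KDEL receptors Kdelr2 passed as higher (0.69 ± 0.19 SE, adjusted p = 0.00435) and Kdelr1 as lower (-0.70 ± 0.21 SE, adjusted p = 0.00905). These counts moved with arrays shifted to the same median, where 36.6% of all genes passed as higher and 24.2% as lower. COPI genes then passed as higher in 3 cases and as lower in 0, COPII genes in 6 and 0, and translocon genes in 6 and 1. Targeting genes passed as higher in 5 cases, signal peptidase genes in 3, cargo receptors in 3 and KDEL receptors in 1, with 0 lower. The stimulated cells did not reach the plasma cell levels: 41 of the 42 genes had all 3 plasma cell arrays above all 3 stimulated arrays (33.8% of all genes), Sar1a being the exception.

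**Figure D3:**
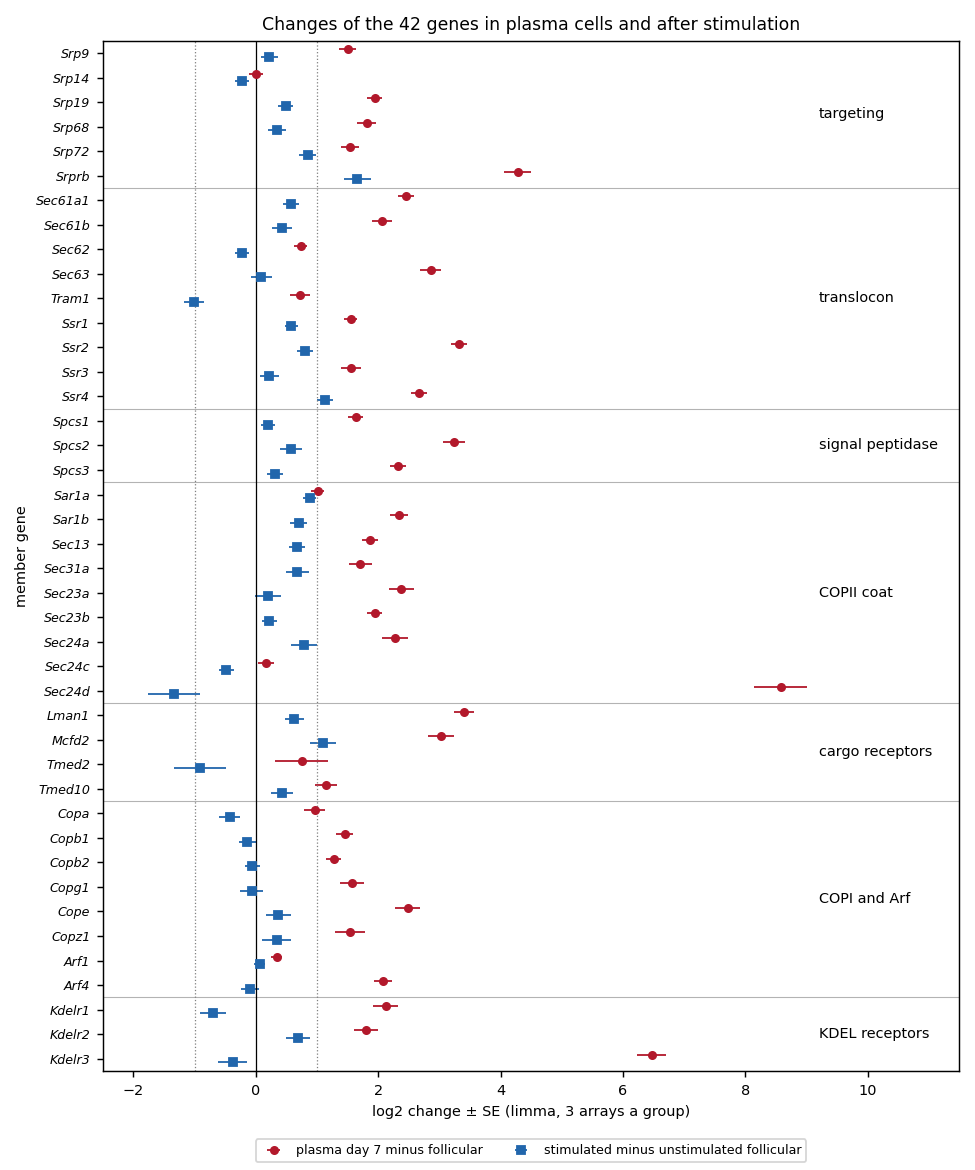
Log2 change (point) with its standard error (bar) of each of the 42 genes in plasma cells (red) and in stimulated follicular cells (blue), both against the same 3 follicular arrays. Dotted lines mark a log2 change of -1 and 1. Red points lie to the right of 1 for 35 genes, blue points for 3, and Sec24d and Tram1 are the blue points to the left of -1.

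Between the groups other than plasma and stimulated cells few of these genes were called. Between marginal zone and follicular cells it was 0 of the 42 (7.21% of all genes higher, 3.83% lower), with 5 higher and 4 lower at an unadjusted p under 0.05 in limma's test. Without the minimum change 1 passed as higher, Lman1 (0.53 ± 0.16 SE, adjusted p = 0.0302), and 1 as lower, Sec23b (-0.41 ± 0.12 SE, adjusted p = 0.0285), where 10.6% and 6.81% of all genes did. Lman1 lost this without any 1 of follicular replicates 1 and 3 or the marginal zone replicates (0.44 to 0.56, adjusted p up to 0.142), and Sec23b without follicular replicate 1 or 2 or marginal zone replicate 1 or 2 (-0.38 to -0.36, adjusted p up to 0.112). Sec24d lay lower in marginal zone cells on all 3 arrays, with a change of -1.25 ± 0.43 (SE, adjusted p = 0.0519) that missed the threshold and passed it under several alternatives.

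In day 7 memory against follicular cells 1 of the 42 was called higher, Sec24a at 1.16 ± 0.21 (SE, adjusted p = 2.97e-04), and 0 lower (9.18% and 9.2% of all genes). Without memory replicate 1, the array with high S100a9, it stood at 0.97 (adjusted p = 0.00244) and was no longer called. Germinal center markers were also high on that array alone of its group: Gcsam, a germinal center gene chosen after its values were seen, read 9.21, 2.26 and 2.40 on the 3 arrays, and the summed signal of the 6 such markers with a probe set ran from 31.0 to 63.1, against 70.4 to 71.4 in germinal center cells of day 7 and 28.6 to 29.5 in follicular cells. Without the minimum change 11 members passed as higher and 2 as lower (15.7% and 17.2% of all genes), and without that array 7 and 3. Of the 11, 6 were translocon genes: Sec63 (0.72 ± 0.17 SE, adjusted p = 0.00361), Ssr4 (0.68 ± 0.13 SE, adjusted p = 3.54e-04), Sec61b (0.65 ± 0.16 SE, adjusted p = 0.00335), Ssr2 (0.55 ± 0.13 SE, adjusted p = 0.00305), Sec61a1 (0.50 ± 0.13 SE, adjusted p = 0.00699) and Ssr1 (0.33 ± 0.11 SE, adjusted p = 0.0211). The 2 that passed as lower were the cargo receptor pair, Mcfd2 (-0.79 ± 0.21 SE, adjusted p = 0.00669) and Lman1 (-0.69 ± 0.16 SE, adjusted p = 0.00306). Plasma cell markers differed too in day 7 memory cells: 4 of 7 were called higher and 0 lower, with a summed signal of 67.9 to 70.3 against 55.2 to 58.8 in follicular cells, and Tnfrsf17 read 4.79, 4.89 and 5.13. Not all went that way: 2 of the 7, Sdc1 and Xbp1, had all 3 memory arrays below all 3 follicular arrays. Sdc1 read 8.73, 8.52 and 8.60 against 9.58, 10.33 and 10.22. The part of the germinal center and plasma cell markers in these changes was not tested.

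From day 7 to day 40 memory cells 0 of the 42 were called (2.74% of all genes higher, 2.28% lower), with 3 higher and 13 lower at an unadjusted p under 0.05 in limma's test. At any size 9 passed as lower and 0 as higher, where 5.36% and 4.82% of all genes did. They were 5 translocon genes, Ssr2 (-0.74 ± 0.13 SE, adjusted p = 0.0012), Sec61b (-0.62 ± 0.16 SE, adjusted p = 0.0157), Sec61a1 (-0.57 ± 0.13 SE, adjusted p = 0.0101), Ssr4 (-0.54 ± 0.13 SE, adjusted p = 0.00968) and Ssr1 (-0.49 ± 0.11 SE, adjusted p = 0.00575), with Srp9 (-0.60 ± 0.14 SE, adjusted p = 0.00993), Spcs1 (-0.60 ± 0.12 SE, adjusted p = 0.00445), Sar1b (-0.59 ± 0.14 SE, adjusted p = 0.0142) and Srp19 (-0.43 ± 0.12 SE, adjusted p = 0.0351). This comparison shares the day 7 memory arrays with the one above. Without memory replicate 1 of day 7, 7 passed as lower, of which 5 were translocon genes. The plasma cell marker sum was 67.9 to 70.3 at day 7 and 57.1 to 63.7 at day 40, with 2 of 7 markers called lower and 0 higher. The myeloid marker sum was 38.1 to 60.7 at day 7 and 40.1 to 58.6 at day 40, and the germinal center marker sum 31.0 to 63.1 and 38.4 to 51.7. Their part was not tested.

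Between germinal center and memory cells of day 7 only Lman1 was called, higher in germinal center cells at 1.21 ± 0.16 (SE, adjusted p = 1.26e-05), and 0 were called lower (11.6% and 12.1% of all genes). Without the minimum change 6 passed as higher and 4 as lower (21.9% and 19.8%), and 8 and 6 without memory replicate 1, the array with high germinal center markers. Those higher beside Lman1 were Sec13 (0.71 ± 0.13 SE, adjusted p = 2.48e-04), Copb2 (0.51 ± 0.12 SE, adjusted p = 0.0022), Sec23b (0.51 ± 0.12 SE, adjusted p = 0.00279), Srp19 (0.45 ± 0.12 SE, adjusted p = 0.00668) and Sar1b (0.42 ± 0.14 SE, adjusted p = 0.0268). Those lower were Ssr4 (-0.65 ± 0.13 SE, adjusted p = 3.79e-04), Mcfd2 (-0.61 ± 0.21 SE, adjusted p = 0.0238), Arf4 (-0.60 ± 0.15 SE, adjusted p = 0.00314) and Sec62 (-0.57 ± 0.11 SE, adjusted p = 4.42e-04). The myeloid marker sum was 25.5 to 41.8 in germinal center and 38.1 to 60.7 in memory cells, and the plasma cell marker sum 62.1 to 65.8 and 67.9 to 70.3. Their part was not tested.

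From day 7 to day 40 germinal center cells only Sec24d was called, higher at 4.88 ± 0.43 (SE, adjusted p = 1.68e-07), and 0 were called lower (3.58% and 2.36% of all genes). Its arrays, given above, did not overlap between the days, and day 40 lay between day 7 and plasma cells. At any size 2 passed as higher, Sec24d and Lman1 (0.63 ± 0.16 SE, adjusted p = 0.0182), and 0 as lower (5.21% and 3.78% of all genes). Lman1 no longer passed without replicate 1 of day 40 (0.46, adjusted p = 0.127) or replicate 3 of day 7 (0.52, adjusted p = 0.0972). The median of the 42 was -0.03. Beside it, the summed signal of 7 plasma cell markers was 62.1 to 65.8 at day 7 and 66.9 to 67.5 at day 40. Among plasma cell genes Prdm1 was called higher (3.23 ± 0.55 SE, adjusted p = 5.35e-04), Tnfrsf17 lay at the floor of 2.15 on all 6 arrays, and Xbp1 did not pass (-0.51 ± 0.20 SE, adjusted p = 0.15). Their part in the change of Sec24d was not tested. The change over time was 4.76 ± 0.60 (SE, adjusted p = 4.12e-05) larger in germinal center than in memory cells, where it was 0.12 (limma's test of the difference, called for 4.96% of all genes). With no minimum size Sec23b passed this test too, at -0.69 ± 0.18 (SE, adjusted p = 0.0242), as did 6.13% of all genes. Without germinal center replicate 1 of day 40, the array with high S100a9, Sec24d was still called.

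Other genes of the same route, from lists of pathway members, were also measured in plasma cells. Of 74 tested genes of translocation and transport outside the 42, 33 were called higher and 6 lower than in follicular cells, with a median log2 change of 0.79. Of all genes tested 20.3% were called higher and 22.4% lower, which are the shares to set beside each list. By list, 6 of 13 targeting and translocon genes were called higher and 1 lower, 7 of 10 subunits of the oligosaccharyltransferase higher and 1 lower, 6 of 17 genes of COPII, cargo receptors and exit sites higher and 1 lower, 5 of 12 of COPI and Arf regulation higher and 1 lower, and 9 of 22 tethers and SNAREs higher and 2 lower. ER folding genes, the chaperones and disulfide isomerases, were called higher in 13 of 15 cases and lower in 0, with a median of 2.04.

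The gene with the largest called change in each of these lists is given here. Srp54b, a copy of the signal-binding subunit of the recognition particle, gave 5.77 ± 0.76 (SE, adjusted p = 2.19e-06), Ddost of the oligosaccharyltransferase 2.73 ± 0.18 (SE, adjusted p = 1.56e-10), and Arfgap3, which switches off Arf GTPases, 6.29 ± 0.54 (SE, adjusted p = 8.98e-09). Bet1, a SNARE of vesicles from the ER, gave 3.02 ± 0.23 (SE, adjusted p = 1.85e-09), and Pdia4, a disulfide isomerase, 7.14 ± 1.03 (SE, adjusted p = 7.47e-06). Sec16b, a scaffold of ER exit sites, was called lower, at -2.61 ± 0.39 (SE, adjusted p = 9.88e-06), from 4.78 in follicular cells to 2.16 in plasma cells, where it was not above the array median.

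Regulators of the secretory program were called higher in plasma than in follicular cells in 8 of 12 cases and lower in 2 (20.3% and 22.4% of all genes tested). Xbp1 gave 3.71 ± 0.20 (SE, adjusted p = 1.42e-11) in plasma cells and was called lower in stimulated cells, at -1.41 ± 0.20 (SE, adjusted p = 9.33e-06). Prdm1, the repressor that sets the plasma cell program, gave 8.02 ± 0.55 (SE, adjusted p = 3.32e-10) in plasma and 2.67 ± 0.55 (SE, adjusted p = 4.07e-04) in stimulated cells. Creb3l2, a membrane-bound transcription factor of the ER, gave 9.32 ± 0.52 (SE, adjusted p = 1.65e-11) in plasma cells. Hspa5, the chaperone BiP, gave 1.33 ± 0.10 (SE, adjusted p = 1.87e-09) in plasma cells and 0.40 ± 0.10 (SE, adjusted p = 0.00283) in stimulated cells.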

How the data were processed

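Gene expression was measured on 24 arrays in 8 groups of 3. The authors deposited log2 values per probe set, normalized together with GCRMA per the submitters' processing notes (version not given in the sources used here); GCRMA subtracts a modelled background, which sets dim probe sets to a common floor. GEO's platform annotation gave the symbols: 34945 of 45101 probe sets had 1, 932 several and 9160 none. Each gene was taken from its own probe set with the highest mean, and 1 model with 8 group means was fitted with limma 3.58.1 in R 4.3.3 to the 11208 genes above the array median on at least 3 arrays. The test was tried on simulated data. Values of every array are given for the 2 largest changes from follicular to plasma cells in each step, the Sar1, Sec23, Sec24 and KDEL receptor paralogs and the largest called change of each other comparison; members outside this rule that are given by array were chosen after their values were seen. Genes outside the set were Xbp1, Prdm1, Hspa5 and the largest called change of each list. Any other marker genes named were chosen after their values were seen. Members and lists were chosen with earlier results of these data known. Precision is limited by 3 arrays a group. The replicate numbers were not used to pair the samples. The correlations of same-numbered arrays, given below, cannot exclude that groups shared animals. Motifs were counted in RefSeq windows on both strands.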

Additional observations from a re-analysis of the deposited data

Results flagged for a closer look

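The change from day 7 to day 40 differed between germinal center and memory cells for 2 of the 42 genes, by limma's test of the difference itself at an adjusted p under 0.05 with no minimum size (Benjamini-Hochberg over all genes tested, of which 6.13% passed). Sec24d differed by 4.76 ± 0.60 on the log2 scale (SE, adjusted p = 4.12e-05), with a change of 4.88 in germinal center and 0.12 in memory cells. Its difference ran from 3.74 to 5.16 under the alternatives, with a highest adjusted p of 0.000208. Sec23b differed by -0.69 ± 0.18 (adjusted p = 0.0242), with -0.39 in germinal center and 0.29 in memory cells, so below 2-fold; with the minimum of 2-fold only Sec24d is called, and 4.96% of all genes. Its arrays read 11.57, 11.45 and 11.08 in germinal center cells of day 7 and 11.10, 10.83 and 10.99 at day 40, which overlap, and 10.90, 10.83 and 10.84 in memory cells of day 7 and 11.12, 11.23 and 11.10 at day 40, which do not. Its difference ran from -0.83 to -0.58, with adjusted p up to 0.0709.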

How the results depend on the processing

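The plasma cell counts moved little when 1 array was left out: 34 to 36 members against follicular, 35 to 36 against marginal zone, 33 to 35 against day 7 memory, 30 to 34 against day 7 germinal center and 33 to 35 against stimulated cells. Of 180 called changes of members, 151 kept their call under all alternatives, 29 lost it under at least 1 and 0 turned sign. Between marginal zone and follicular cells the count of 0 became 1, Sec24d lower, under a stricter filter, arrays shifted to the same median, quantile normalization, averaging over all probe sets of the gene and a fit of the compared groups alone, and 2 with no minimum change. Leaving out 1 array gave 0 to 1 there. Stimulated against follicular cells gave 10 with arrays shifted to the same median, 8 with the mean of probe sets and 23 with no minimum change. Germinal center against memory cells of day 7 gave 2 with the mean and 10 with no minimum. Day 7 memory against follicular cells gave 4 without probe sets named _s_at, _x_at or _a_at, 13 with no minimum, and 0 to 1 when 1 array was left out. It gave 0 without both doubted arrays, replicate 1 of day 7 memory and of day 40 germinal center cells, an alternative chosen after seeing the data. With no minimum, day 40 against day 7 memory cells gave 9 and germinal center cells 2. Without probe sets named _s_at, _x_at or _a_at, Arf1 turned to -1.73 in plasma against stimulated cells (adjusted p = 0.000253) and Srprb to -1.10 in day 7 memory against follicular cells (adjusted p = 0.0337), which are other probe sets of these genes. Same-numbered arrays correlated at -0.50 to 0.44 in their deviations, and in no comparison were all correlations over 0.1. The fit with the replicate number as a block gave the same counts, 35, 36, 34, 33 and 34 for plasma cells and 5, 0, 1, 1, 0 and 1 for the others, with 42 in the F test. With 3 arrays a group, dim genes have compressed or unstable differences. These are Kdelr3 outside plasma cells and Sec24d outside plasma cells and day 40 germinal center cells.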
